A study of Mus musculus with 4 samples.

Results

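Resf1 and 9 other genes that hold retroelements silent or act against retroviruses were followed on 4 arrays of infarcted mouse hearts. The members are Resf1, Setdb1, Atf7ip, Trim28, Zfp809, Mphosph8, Morc2a, Dnmt1, Uhrf1 and Apobec3. They were chosen by symbol in the platform's annotation, with 1 probe per symbol, and are 10 of the 19505 different symbols among 22206 probes. A probe here is the summary of all oligonucleotides that read a transcript cluster. Each member had 1 probe. The choice was made with the differences between the groups in view, Resf1 and Apobec3 having stood out, so the members' values are a description and carry no test.

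All 4 hearts came from male mice operated on at 8 weeks of age, when the left coronary artery was tied to cause myocardial infarction (MI), and were taken 3 months later. Total RNA of the whole heart was read on Clariom S Mouse arrays. The 2 control hearts (Ctrl-MI) have the genotype Tcf21iCre/Tomato, a Cre recombinase driven by the fibroblast gene Tcf21 together with a Tomato reporter. The 2 transgenic hearts (TTg-MI) have the genotype Tcf21iCre/Tomato/MGTH2A, where MGTH2A is the usual name of a joint construct for Mef2c, Gata4, Tbx5 and Hand2. Both groups thus carry the Cre, the reporter and the infarct. The Cre acts in cells with Tcf21 activity, while the RNA comes from all cells of the heart. The sources used here do not say how the Cre was induced. The series' design text calls the 2 hearts of a group independent biological replicates.

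Retroelements are copies of ancient viruses and mobile sequences in the genome, most of which are held silent by chromatin. KRAB zinc finger proteins bind them by sequence and bring in Trim28, which recruits the histone methyltransferase Setdb1 to place methyl groups on lysine 9 of histone H3. The HUSH complex reads and spreads that mark, and Dnmt1 with Uhrf1 copies DNA methylation at CpG dinucleotides when cells divide. Apobec3 acts later, on the reverse transcripts of retroviruses. Most of this has been worked out in embryonic stem cells and cell lines rather than in heart muscle.

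RefSeq promoter windows (GRCm38.p6, 250 bases before to 50 after a transcript start) were found for all 10 members, 16 windows in all. The bases before the gene record of Resf1 (chr6:149309164-149309408, plus strand) and of Zfp809 (chr9:22225453-22225666, plus strand) are shown because these members had the largest negative differences, with CpG dinucleotides, the substrate of Dnmt1, in capitals. For Apobec3, 30 bases (chr15:79892258-79892287, plus strand) are shown around a match to GAAA, any 2 bases and GAAA, the core of the interferon-stimulated response element (ISRE), read on the minus strand and set in capitals.
Resf1: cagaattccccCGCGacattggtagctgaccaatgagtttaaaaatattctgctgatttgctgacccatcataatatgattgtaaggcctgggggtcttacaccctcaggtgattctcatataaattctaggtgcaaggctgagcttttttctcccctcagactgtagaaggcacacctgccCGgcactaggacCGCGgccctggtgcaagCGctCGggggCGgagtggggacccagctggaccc
Zfp809: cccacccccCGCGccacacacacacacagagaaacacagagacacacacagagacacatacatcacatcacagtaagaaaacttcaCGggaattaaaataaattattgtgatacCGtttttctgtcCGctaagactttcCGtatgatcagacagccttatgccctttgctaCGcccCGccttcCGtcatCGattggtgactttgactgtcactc
Apobec3: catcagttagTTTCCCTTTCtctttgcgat
The whole windows of Resf1 and Zfp809 hold 13 and 11 CpG, against a median of 7 and an upper quartile of 20 over 32851 windows. Counting the richest window of each gene, 6 of the 10 members reached that quartile, led by Morc2a with 46. Quartiles and shares here are over single windows. Some members have several windows, so counts by member are not like for like with them. The ISRE core was searched on both strands and was present in 3.44% of all windows, and among the members' windows it was found in the first of the Apobec3 windows. CCAAT, searched the same way, was present in 37.4% of all windows and in a window of every member but Trim28. It occurs on each strand in the Resf1 window, as in windows of Dnmt1 and Uhrf1. TTTGGCGC, a form of the site of the cell cycle factor E2F, was present in 0.514% of all windows and in 1 of the 3 Dnmt1 windows. Another form, TTTCCCGC, was present in 1.07% of all windows and in no window of a member. These matches are letters in a window and not measured binding.

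The arrays had medians between 6.55 and 6.62 log2 units and lower quartiles between 5.41 and 5.48. All 8 cardiomyocyte markers lay above the upper quartile of every array, with Myh6, a cardiac myosin gene, at 19.42 to 19.76. Ctrl-MI replicate 1 stood apart on the first principal component (-47.1 against -1.29 to 31.9), and Ctrl-MI replicate 2 read 7.70 for the atrial gene Myl4 where the others read 14.61 to 16.34. Fewer cells of a type and less RNA per cell cannot be told apart in whole-heart RNA. Every difference below subtracts the mean of the Ctrl-MI hearts from that of the TTg-MI hearts on the log2 scale, with the standard error (SE) of limma's moderated fit. Levels are not compared between genes, since different probes respond differently. No member lay under the lower quartile of any array, and Resf1, Zfp809, Atf7ip and Mphosph8 lay above the upper quartile on all 4.

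Among the 10 members, Resf1 was far lower in the hearts with the transgene and Apobec3 was higher, while the other 8 differed by less than 1.5-fold. The HUSH reader Mphosph8, the HUSH-recruited ATPase Morc2a, the Setdb1 partner Atf7ip and the methylation reader Uhrf1 had overlapping groups and differences of 0.15 or less in size. Differences of at least 1.5-fold were seen for 2.85% of all probes upward and 4.56% downward. The arrays of the groups did not overlap for 5 members, 4 lower and 1 higher in TTg-MI, where the same held for 18.7% of all probes downward and 19.4% upward. The median difference of the members was -0.11, against 0.01 over all probes.

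**Figure D1:**
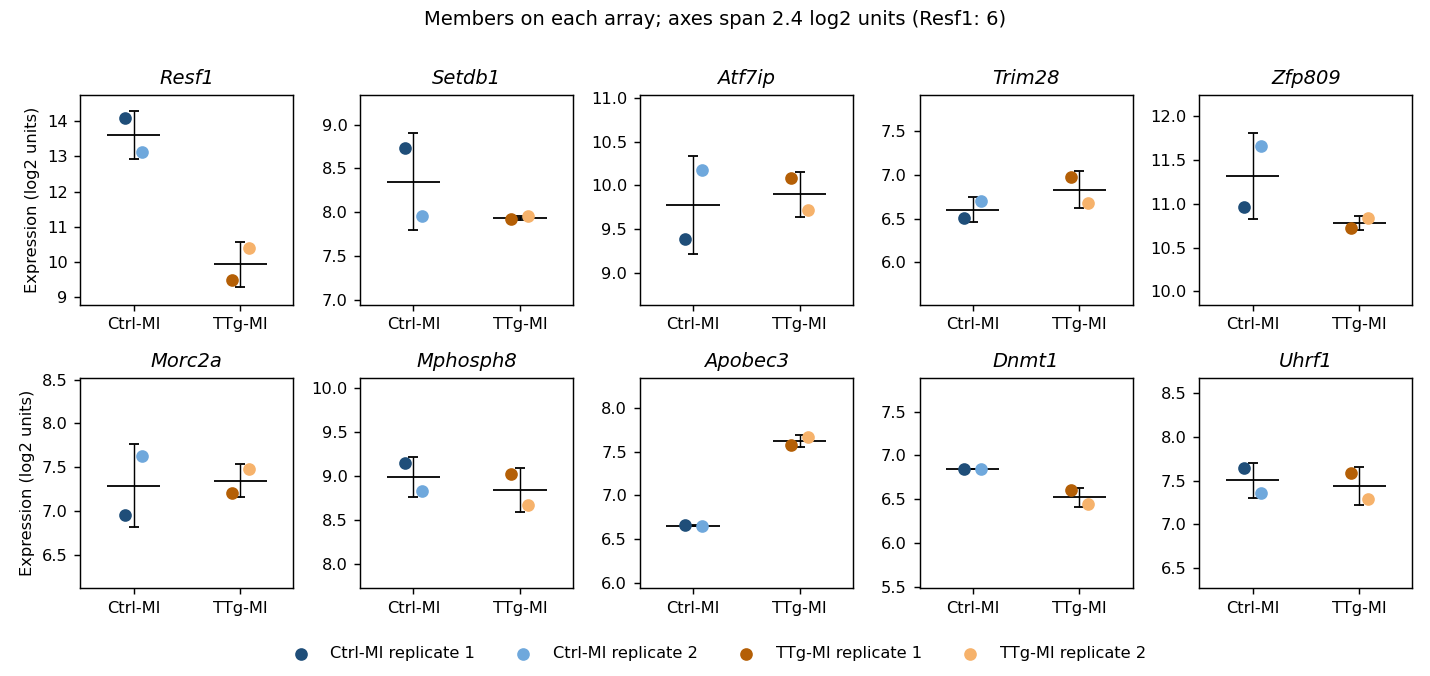
Expression (log2 units) of each member on each array, with the group mean (horizontal line) and SD (bars, n = 2). The y axes span the same range except for Resf1, whose axis is wider. Resf1 reads 14.10 and 13.13 in Ctrl-MI against 9.46 and 10.38 in TTg-MI, Apobec3 goes the other way with little spread, and most others overlap.

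Resf1, retroelement silencing factor 1, is a chromatin protein that works with Setdb1 on endogenous retroviruses in embryonic stem cells. It read 14.10 and 13.13 on the Ctrl-MI arrays and 9.46 and 10.38 on the TTg-MI arrays. Both TTg-MI hearts were thus lower than both Ctrl-MI hearts, by at least 2.75 log2 units between the nearest arrays. The means were 13.61 ± 0.68 and 9.92 ± 0.65 (SD, n = 2 each), a difference of -3.69 (SE 0.43), which is 12.9-fold lower in TTg-MI. This was the second lowest difference of all 22206 probes. Leaving out single arrays gave -4.18 to -3.21. With the groups 2.75 apart, each such difference had to be at least that large, so these values are no separate check. The Resf1 values still lay above every array's upper quartile in TTg-MI.

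Setdb1, the methyltransferase itself, read 8.74 and 7.96 in Ctrl-MI and 7.92 and 7.96 in TTg-MI. Ctrl-MI replicate 1 was high and the other 3 arrays were level, so that the groups were apart by only 0.0035 log2 units. The difference of -0.41 (SE 0.28) became -0.02 without Ctrl-MI replicate 1 and -0.80 when Ctrl-MI replicate 2 was left out. Atf7ip, which stabilizes Setdb1 in the nucleus, read 9.38 and 10.17 in Ctrl-MI and 10.08 and 9.71 in TTg-MI, a difference of 0.12 (SE 0.30). Its lowest value was on Ctrl-MI replicate 1, where Setdb1 had its highest, and the sign turned to -0.28 without that array and -0.06 without TTg-MI replicate 1.

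Trim28, the corepressor that links KRAB zinc finger proteins to Setdb1, read 6.50 and 6.70 in Ctrl-MI and 6.98 and 6.68 in TTg-MI. The groups overlapped, and the difference was 0.23 (SE 0.18), or 0.08 without TTg-MI replicate 1. Zfp809, a KRAB zinc finger protein that recognizes the primer binding site of murine leukemia viruses, read 10.97 and 11.66 in Ctrl-MI and 10.73 and 10.84 in TTg-MI. Both TTg-MI arrays were lower, but the gap within Ctrl-MI was larger than the difference of the means. That difference was -0.53 (SE 0.26), -0.88 without Ctrl-MI replicate 1 and -0.18 when Ctrl-MI replicate 2 was left out.

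Mphosph8, the HUSH subunit that binds methylated histone H3, read 9.15 and 8.83 in Ctrl-MI and 9.02 and 8.67 in TTg-MI, a difference of -0.15 (SE 0.20). Morc2a, an ATPase that compacts chromatin at HUSH targets, read 6.96 and 7.62 in Ctrl-MI and 7.21 and 7.48 in TTg-MI, a difference of 0.05 (SE 0.26). The groups overlapped for both genes, and the sign of each difference turned in some fits that left out an array, with ranges of -0.33 to 0.03 and -0.28 to 0.39.

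Dnmt1, the maintenance DNA methyltransferase, read 6.85 and 6.84 in Ctrl-MI and 6.60 and 6.44 in TTg-MI. The control hearts were nearly equal and both TTg-MI hearts lay below them. The difference of -0.32 (SE 0.15) was 1.25-fold and ranged from -0.40 to -0.24 as single arrays were left out. Uhrf1, which finds half-methylated CpG sites for Dnmt1, read 7.64 and 7.36 in Ctrl-MI and 7.59 and 7.29 in TTg-MI, a difference of -0.07 (SE 0.19) with overlapping groups. Its sign turned to 0.08 without Ctrl-MI replicate 1 and to 0.09 without TTg-MI replicate 2. Both genes are known to be expressed mainly in dividing cells, so proliferation markers are given beside them. Of 16 measured markers 13 had a lower TTg-MI mean, and the median difference was -0.22. The summed level (log2 of the sum of linear values) was 12.24 to 12.48 in Ctrl-MI and 11.97 to 12.13 in TTg-MI. Without Ctrl-MI replicate 1, Aurkb, Mcm2, Mcm4 and Rrm2 turned positive (0.16, 0.22, 0.31 and 0.38). The other markers with lower means then ran from -0.44 (Top2a) to -0.02 (Ccnb2). The part of these markers in the Dnmt1 difference was not tested.

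Apobec3, a cytidine deaminase that enters retroviral particles and edits their DNA, read 6.66 and 6.65 in Ctrl-MI and 7.58 and 7.67 in TTg-MI. The arrays within each group lay close together and the groups did not overlap. The means were 6.65 ± 0.01 and 7.62 ± 0.06 (SD, n = 2 each), a difference of 0.97 (SE 0.15), or 1.96-fold higher in TTg-MI. Leaving out single arrays gave 0.92 to 1.01. Apobec3, Resf1 and Dnmt1 were the 3 members whose difference exceeded the larger gap between arrays of a group, which held for 25.0% of all probes.

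**Figure D2:**
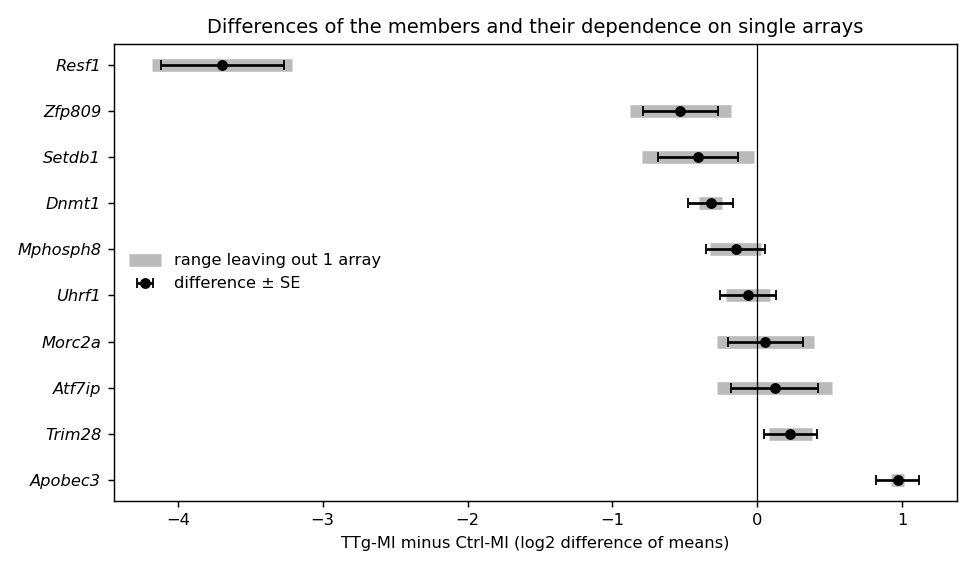
Difference of the group means (log2, TTg-MI minus Ctrl-MI) for each member, with the SE of limma's fit as bars and the range over the 4 fits that leave out 1 array as grey bands. The band of Resf1 runs from -4.18 to -3.21 and that of Apobec3 from 0.92 to 1.01, while those of Atf7ip, Morc2a, Mphosph8 and Uhrf1 cross 0.

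Markers of several cell types differed alongside these values. All 6 measured fibroblast markers had lower TTg-MI means, with summed levels of 18.65 to 19.30 in Ctrl-MI and 17.93 to 18.52 in TTg-MI. Their differences ran from -1.37 (Col1a2) to -0.74 (Dcn), and from -1.04 (Tcf21) to -0.41 (Col1a1) without Ctrl-MI replicate 1. All 6 macrophage markers were lower as well, with summed levels of 11.85 to 13.32 and 10.87 to 11.46. Without Ctrl-MI replicate 1 Fcgr1 turned to 0.10, and the other macrophage markers ran from -0.997 (Mrc1) to -0.38 (Csf1r). The 5 markers of B and plasma cells had lower means, with summed levels of 9.19 to 9.31 and 7.95 to 7.96. Jchain differed by -2.63 and the other 4 by -0.34 (Cd79a) to -0.12 (Cd79b), and the median of the list was -0.32. Of 5 markers of T and NK cells 3 were lower, with summed levels of 7.94 to 8.03 and 7.88 to 7.90. No marker of these 4 lists lay under the lower quartile on every array, but Ms4a1, Cd3g and Cd3d did on 2 arrays each. Of the other lists, all 8 cardiomyocyte markers had higher TTg-MI means, with a median difference of 0.14. Without Ctrl-MI replicate 1 their differences ran from -0.24 (Ttn) to 0.45 (Ryr2). Of 5 atrial markers 4 were higher (median 3.63), but without Ctrl-MI replicate 2 Myl4 stood at -0.52 and Sln at -0.33. Endothelial markers were higher for 3 of 6, smooth muscle and pericyte markers for 3 of 6 and neutrophil markers for 2 of 3. The part of these cell types in the Resf1 and Apobec3 differences was not tested.

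The genes whose 4-array pattern was nearest to that of Resf1 were chosen by Euclidean distance between log2 values centred on each gene's mean. They were Jchain, the joining chain of secreted antibodies, at a distance of 1.28, the matrix protein gene Thbs1 at 1.35, the kinase gene Sik1 at 1.53, the myelin gene Pmp22 at 1.61 and the Wnt antagonist gene Sfrp1 at 1.71. Their differences ran from -2.89 for Sfrp1 to -2.18 for Pmp22, all smaller than that of Resf1. Nearest to Apobec3 were Slc40a1, the iron exporter ferroportin, at 0.11, the phospholipase gene Pla2g4e at 0.12, Nmnat3, an enzyme of NAD synthesis, at 0.14, 4930481A15Rik at 0.16 and the LIM protein gene Crip2 at 0.18. The first 4 have differences of 0.84 (Nmnat3) to 0.97 (4930481A15Rik), and Crip2 read 15.41 and 15.43 in Ctrl-MI and 16.25 and 16.59 in TTg-MI. The likeness rests on 4 arrays and is a description.

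Resf1 is the last measured named gene of chromosome 6 in the order of the RefSeq gene table, so it has measured neighbours on 1 side only. From the nearest outward, Amn1 differed by -0.17 (SE 0.16), the methyltransferase gene Etfbkmt by -0.71 (SE 0.35), Dennd5b by -0.48 (SE 0.22), Sinhcaf by -0.11 (SE 0.20) and Caprin2 by 0.29 (SE 0.16). The Etfbkmt difference was -1.24 without Ctrl-MI replicate 1 and -0.18 when Ctrl-MI replicate 2 was left out, and that of Dennd5b was -0.25 without TTg-MI replicate 1. The smaller differences of Amn1 and Sinhcaf also moved by over 1.5 times, the latter turning positive without Ctrl-MI replicate 1 or TTg-MI replicate 1. None passed limma after Benjamini-Hochberg adjustment over all probes (adjusted p from 0.632 to 0.940), and none had an unadjusted limma p under 0.05. Atf7ip lies on the same chromosome, and Dnmt1 and Zfp809 share chromosome 9. Around Apobec3 on chromosome 15, Cbx7, a Polycomb chromobox gene, differed by 0.69 (SE 0.25), Gtpbp1 by 0.78 (SE 0.27) and Syngr1 by -0.44 (SE 0.18). These 3 of 10 neighbours, 2 higher and 1 lower, had an unadjusted limma p under 0.05, as had 3.18% of all probes upward and 5.07% downward. As single arrays were left out, their differences ran from 0.41 to 0.96 for Cbx7, 0.46 to 1.11 for Gtpbp1 and -0.61 to -0.28 for Syngr1. The other 7 neighbours of Apobec3 differed by -0.38 (Rpl3) to 0.41 (Tab1). Of these 10 neighbours 0 passed limma with adjustment over all probes.

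**Figure D3:**
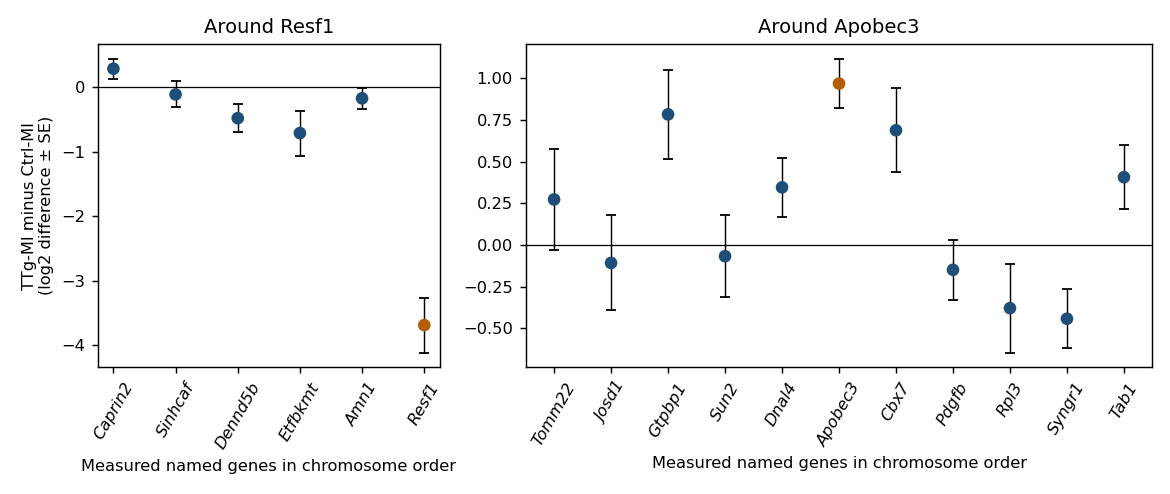
Difference of the group means (log2, TTg-MI minus Ctrl-MI) with the SE of limma's fit for the 5 measured genes before Resf1, which has none after it, and the 5 on each side of Apobec3, in chromosome order and with separate y axes. Resf1, at -3.69, stands far below its neighbours, which lie between -0.71 and 0.29. The neighbours of Apobec3 lie on either side of 0, between -0.44 and 0.78.

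Other genes of silencing, restriction and sensing were counted in 8 lists. The lists were chosen with earlier results of these data known, so their shares beside those of all probes are a description. Of 138 listed genes 124 were measured. After Benjamini-Hochberg adjustment over all probes limma called 0 of them, where it called 0.0045% of all probes, the single probe of the atrial gene Bmp10. At an unadjusted limma p under 0.05 there were 3 higher (2.42%) and 11 lower (8.87%), against 3.18% and 5.07% of all probes. The smallest adjusted p of any of them in limma was 0.546. The median difference was -0.06, with 70 genes lower and 54 higher by their means. Between 7 and 22 genes had such a p as single arrays were left out, 10 without Ctrl-MI replicate 1, 22 when Ctrl-MI replicate 2 was dropped and 7 without either TTg-MI array. Only Stat2, Tlr7 and Slc20a1 among the 14 kept it in all 4 of these fits.

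Partners of HUSH and Setdb1 showed no common direction, with 5 of 9 lower and a median of -0.06. Tasor, the scaffold of the HUSH complex, read 9.51 and 9.59 in Ctrl-MI and 9.03 and 8.98 in TTg-MI, a difference of -0.55 (SE 0.15, limma adjusted p = 0.546). Its paralog Tasor2 differed by 0.34 (SE 0.15) and the HUSH subunit gene Pphln1 by 0.51 (SE 0.32), the former without and the latter with overlap of the groups. The Pphln1 difference was 0.05 without Ctrl-MI replicate 1 and 0.98 when Ctrl-MI replicate 2 was left out. Of 16 genes of histone H3 lysine 9 methylation and heterochromatin, 11 were lower with a median of -0.07, and 1 had an unadjusted limma p under 0.05. That gene was Ehmt2, a methyltransferase also called G9a, with 9.17 and 9.09 in Ctrl-MI, 8.50 and 8.80 in TTg-MI and a difference of -0.48 (SE 0.17). The histone chaperone subunit Chaf1a differed by 0.22 (SE 0.15) and the heterochromatin protein gene Cbx5 by -0.20 (SE 0.17).

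Of 14 genes of DNA methylation 0 had an unadjusted limma p under 0.05, and the median difference was 0.05. The methyl-CpG binding domain genes Mbd2 and Mbd3 differed by -0.33 (SE 0.15) and -0.22 (SE 0.16). Dnmt3l, a cofactor of the de novo methyltransferases, differed by 0.19 (SE 0.16). Among 20 other KRAB zinc finger genes, 10 were lower and 10 higher, with a median of -0.01. Zfp568, a repressor of a placental Igf2 transcript, differed by -0.61 (SE 0.19), Zfp93 by 0.47 (SE 0.15) and Zfp30 by -0.34 (SE 0.20). Zfp30 stood at -0.53 without Ctrl-MI replicate 1 and -0.16 when Ctrl-MI replicate 2 was left out. Zfp568 and Zfp93 had an unadjusted limma p under 0.05 (limma adjusted p of 0.553 and 0.572). Of 11 MORC and piRNA genes, most known from the germ line, 0 had such a p, and 4 stayed under the lower quartile on all arrays.

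Of 17 restriction factors 8 were lower and 9 higher, with a median of 0.00. For 6 of them every TTg-MI value lay under every Ctrl-MI value, and for 1 above. The shares of all probes were 18.7% and 19.4%. At an unadjusted limma p under 0.05 there were 2 lower (11.8%, against 5.07% of all probes) and 1 higher (5.88%, against 3.18%). Ifitm3, a membrane protein that blocks virus entry, read 14.96 and 13.56 in Ctrl-MI and 13.11 and 12.54 in TTg-MI. Its difference was -1.44 (SE 0.48, limma adjusted p = 0.572), -0.74 without Ctrl-MI replicate 1 and -2.14 when Ctrl-MI replicate 2 was left out. Samhd1, which depletes the nucleotides needed for reverse transcription, differed by -0.43 (SE 0.16), and Rnaseh2a, the catalytic subunit of an enzyme that cuts RNA in RNA-DNA hybrids, by 0.51 (SE 0.15). Rnaseh2a thus had a higher mean in the same hearts as Apobec3, at 7.61 and 7.69 against 7.15 and 7.13 in Ctrl-MI.

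Sensors of foreign nucleic acid and interferon response genes were mostly lower, 21 of 24 by their means, with a median of -0.29. At an unadjusted limma p under 0.05 there were 5 lower (20.8%, against 5.07% of all probes) and 1 higher (4.17%, against 3.18%). For 14 of the 24 every TTg-MI value lay under every Ctrl-MI value, as for 18.7% of all probes. These shares describe a list chosen with earlier results of these data known. Stat2, a transducer of interferon signals, read 8.10 and 7.99 in Ctrl-MI and 7.44 and 7.33 in TTg-MI, a difference of -0.65 (SE 0.15, limma adjusted p = 0.546). Tlr7, a receptor for single-stranded RNA of myeloid and B cells, read 9.14 and 8.50 in Ctrl-MI and 7.89 and 7.64 in TTg-MI, a difference of -1.05 (SE 0.25, limma adjusted p = 0.546). Ifit2, induced by interferon, differed by -0.66 (SE 0.23) and by -0.39 without Ctrl-MI replicate 1. Chosen after their values were seen, Sting1, an adaptor of DNA sensing, differed by -0.66 and Mavs, the adaptor of RNA sensing on mitochondria, by 0.59, and they stood at -0.32 and 0.33 without Ctrl-MI replicate 1. The list's median was -0.17 without that array. Macrophage markers had lower means in the same hearts (summed levels and values without Ctrl-MI replicate 1 above), and their part in this list was not tested.

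Among 13 genes derived from retroelements or serving as retroviral receptors, 5 were lower and 8 higher, with a median of 0.08. Slc20a1, a phosphate transporter that some gammaretroviruses use to enter cells, read 8.78 and 8.58 in Ctrl-MI and 7.44 and 7.97 in TTg-MI, a difference of -0.97 (SE 0.22, limma adjusted p = 0.546). Pnma1 and Pnma2, which descend from retrotransposon capsid genes, differed by 0.44 (SE 0.18) and 0.37 (SE 0.15), without overlap of the groups (limma adjusted p of 0.605 and 0.607). Transcripts of retroelements themselves were not analysed here.

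**Figure D4:**
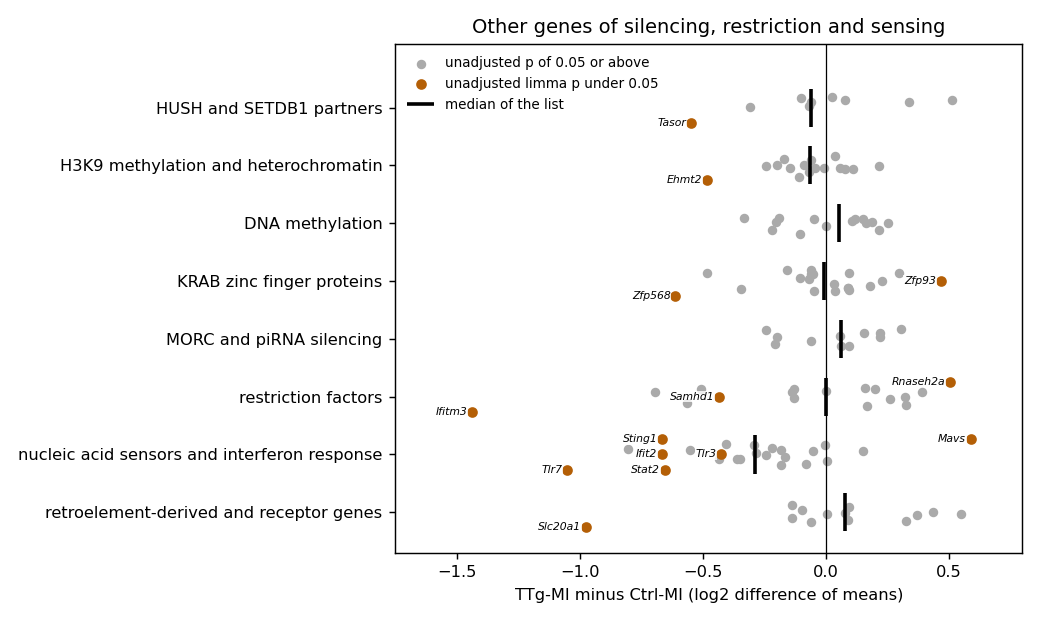
Difference of the group means (log2, TTg-MI minus Ctrl-MI) of each measured gene in the 8 lists; points are genes, their vertical scatter within a list has no meaning, and black lines are list medians. Orange points, with names, have an unadjusted limma p under 0.05, and most lie to the left of 0. The sensor and interferon list has the lowest median, -0.29.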

How the data were processed

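Total RNA of 4 hearts was read on Clariom S Mouse arrays. The authors deposited values that were taken as log2 expression, judging by their range of about 4 to 20, as no source used here states the log base. Per the submitters' processing notes, the authors used Affymetrix Expression Console 1.4; how values were normalized and summarized, and on which genome build, is not stated there. No filter or further normalization was applied.

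Of 22206 probes, 19572 had 1 symbol in the platform annotation and 2634 were unnamed here. Where a symbol had several probes, the brightest was used. Every probe was fitted with limma 3.58.1 in R 4.3.3 (lmFit and eBayes, two-sided), and p-values were adjusted by Benjamini-Hochberg over the whole table, with calls made under 0.05. With 2 arrays a group, the number of arrays limits the precision: the fit has 2 residual degrees of freedom and 3.56 from the prior. The script was tested on simulated data.

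The members and gene lists were chosen with earlier results of these data known. Named were the members, up to 3 genes per list with the smallest limma p, 5 measured neighbours per side and the 5 nearest patterns for Resf1 and Apobec3. Promoter windows and gene order come from RefSeq, GRCm38.p6. List genes that did not match a named probe were not analysed here, nor were KRAB genes searched by protein sequence as planned. Other settings tried were median centring, quantile normalization, dropping dim probes, an intensity trend with robust prior, a block for the replicate number, averaging a gene's probes, and leaving out each array in turn, which takes the spread from the intact group alone.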

Additional observations from a re-analysis of the deposited data

How the results depend on the processing

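The Resf1, Apobec3, Dnmt1, Zfp809, Setdb1 and Trim28 differences kept their sign under quantile normalization, median centring and each fit without 1 array. For all of these but Trim28 the groups did not overlap, so leaving out 1 array could not turn the sign. Averaging a gene's probes could not change any member, since each had 1 probe. Atf7ip, Morc2a, Mphosph8 and Uhrf1 changed sign in 2 of the fits without 1 array. The number of probes that limma called was 1 with all arrays, 4 with an intensity trend and robust prior (Bmp10, Gabra3, Jchain and Resf1, the last chosen with this contrast in view), 7 with the replicate block and 1 to 332 as single arrays were left out, 332 of them without Ctrl-MI replicate 2. The replicate numbers are shared by name only: with 2 pairs, the deviations of same-numbered arrays correlated at 0.16 across probes, and the block gave 19 pathway genes at an unadjusted p under 0.05 against 14. That count was 7 with the filter on dim probes, which tests fewer genes, and 7 to 22 as single arrays were left out. Adjusted calls among pathway genes were 0 to 1 in those fits, the 1 being Ifitm3 without Ctrl-MI replicate 2. The cause of these shifts was not tested. Values near the lower quartiles were not shown to be above background, since no detection values were used here.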
